A study of Mus musculus with 2 samples.

Results

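The 10 genes described here encode transcription factors that set the myeloid lineage: Cebpa, Cebpb, Cebpd and Cebpe of the C/EBP family, Sfpi1, which encodes PU.1, Gfi1, Irf8, Runx1 with its partner Cbfb, and Myb. They were chosen by name, as the rows of the deposited gene table that carry these symbols, and all 10 were found among 23235 genes. RNA was sequenced from leukaemic cells of a mouse model of acute promyelocytic leukaemia (APL), 1 library from each of 2 leukaemias, APL#2 and APL#1. Both came from C57BL/6-Ly5.2 mice that carry the PML-RAR fusion, given in the labels as mCG-PML-RAR transgenic and as PML-RAR KI, at an age of 10 weeks and untreated. The libraries are titled S12_VEH for APL#1 and S18_VEH for APL#2, so both carry the tag VEH, whose meaning is not given here. The cells, marked by CD45.2, were grown in CD45.1+ C57BL/6-Ly5.1 recipients that had not been irradiated, from 200000 injected cells for APL#2 and 2000000 for APL#1, and were purified from the spleen by immunomagnetic selection. The series contrasts the leukaemias as clones that differ in how often their cells start the disease anew, and the sources used here do not state which clone has the higher frequency. Each leukaemia is 1 clone and 1 library, so the values below carry no replicate error, and clone, recipient, cell dose and library cannot be told apart. In bulk RNA, fewer cells of a type and less RNA per cell cannot be told apart either.

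Granulocytes arise from progenitors under factors that act in turn. PU.1 and C/EBPα open the myeloid programme, RUNX1 with CBFβ and MYB act with them at early granule genes, GFI1 represses genes of other fates, and C/EBPε drives the later, secondary granules. IRF8 favours monocytes and dendritic cells over granulocytes. The PML-RAR protein holds cells at the promyelocyte stage, where primary granules form, and C/EBP and PU.1 sites are among those it is known to affect.

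Levels are in FPKM, in which fragments are divided by transcript length and by sequencing depth, so genes can be compared within a library. Differences are log2((FPKM in APL#2 + 1)/(FPKM in APL#1 + 1)), a scale on which low genes differ less than their plain ratio shows. Genes whose mean over both libraries reached 1 FPKM, 4100 in all, are called measured, and 9 of the 10 factors were among them. Across measured genes the difference had a median of -0.17 and the plain ratio a median of 0.835, so each factor is also given relative to these. The table's values summed to 35240 FPKM in APL#2 and 34894 in APL#1. The low values rose in steps of whole fragments, from which 1 fragment was worth 0.0162 FPKM in APL#2 and 0.0175 in APL#1 per kb of transcript, after 200 bases were taken off its length. Fragment numbers and 95% intervals below rest on that estimate and cover counting error only. They use the longest coding transcript of each factor. Where the values were computed on a shorter one, the fragment numbers are too high and the intervals too narrow. All 10 genes of the promyelocyte marker list found in the table were measured. Their summed FPKM was 208.8 for APL#2 against 748.8 for APL#1, of which Mpo, myeloperoxidase, gave 157.3 and 661.8. On the log2(FPKM + 1) scale 3 of the 10 were at least 1.5-fold lower in APL#2, against 10.1% of measured genes. The count passing 1.5-fold the other way was 0, against 5.49%. Relative to the all-gene median, 2 markers passed 1.5-fold lower, against 5.34% of measured genes, and 0 passed 1.5-fold higher, against 8.78%. Of the 10 markers, 5 lay above that median and 5 below it. Ptprc, which encodes CD45, had 4.10 FPKM for APL#2 against 4.66 for APL#1. Recipients were CD45.1+, so Ptprc RNA does not mark leukaemic cells alone. Whether promyelocytes made up equal parts of both libraries was not tested.

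All of the factors but Irf8 were expressed, and their order was nearly the same in both leukaemias. Myb led at 14.0 FPKM in APL#2 and 13.1 in APL#1, which placed it 281st and 314th of the 4100 measured genes. Cebpe, Sfpi1, Gfi1 and Cebpa followed in APL#2, and Runx1, Cebpb, Cebpd and Cbfb lay lowest of the 9. In APL#1 the order differed by Sfpi1 standing above Cebpe and Cebpd above Cebpb. Several neighbours in the order lay within counting error of each other: Runx1 and Cebpb, and Cebpd and Cbfb, in APL#2, and Sfpi1 and Cebpe, Runx1 and Cebpd, and Cebpb and Cbfb in APL#1. Cbfb, the lowest of the 9, was 106-fold above Irf8 in APL#2 and 60.3-fold above it in APL#1, folds that rest on 2 and 4 fragments of Irf8 and have lower counting bounds of 26.5 and 22.5.

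**Figure D1:**
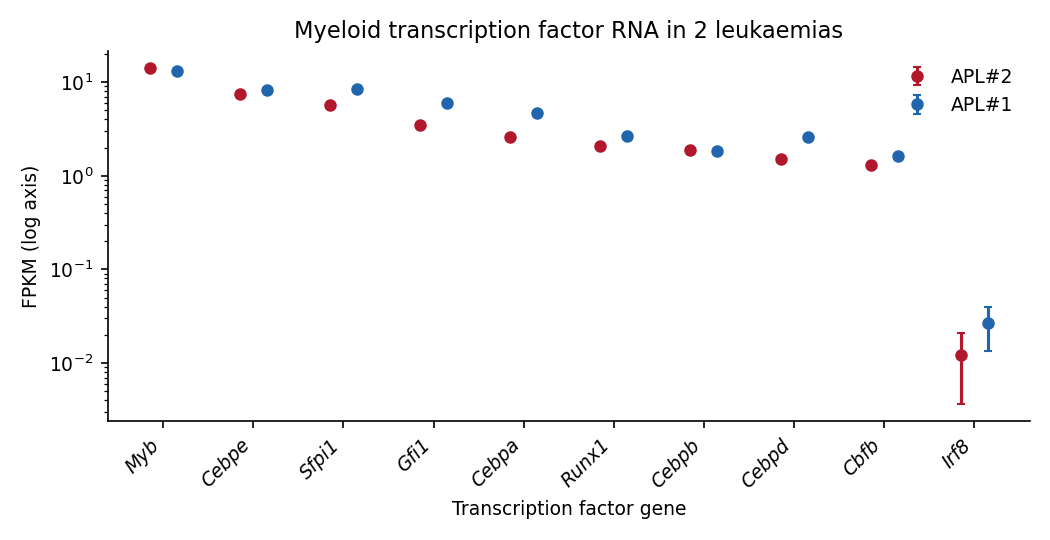
FPKM (log axis) of the 10 transcription factor genes in APL#2 (red) and APL#1 (blue), 1 library each, ordered by level in APL#2; bars are the estimated counting error of 1 library. Myb was highest in both, at 14.0 and 13.1 FPKM, and Irf8 lay under 0.03 FPKM in both.

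On the log2(FPKM + 1) scale 0 of 9 factors passed a 2-fold difference either way, where 2.10% of measured genes were at least 2-fold higher in APL#2 and 2.44% at least 2-fold lower. At 1.5-fold, 2 of 9 were lower in APL#2, Cebpa and Gfi1, against 10.1% of measured genes, and 0 of 9 were higher, against 5.49%. Relative to the all-gene median, 0 of 9 passed 1.5-fold lower, against 5.34% of measured genes, and 0 of 9 passed 1.5-fold higher, against 8.78%. At 2-fold relative to that median the counts were again 0 of 9, against 2.93% of measured genes higher and 1.76% lower. The median of the 9 differences was -0.25, or -0.07 relative to all genes. Set singly against the quartiles of all measured genes (-0.37 and 0.04), the 9 split: Cebpa, Gfi1, Cebpd and Sfpi1 lay below the lower quartile, Myb lay above the upper quartile, and Runx1, Cbfb, Cebpe and Cebpb lay between. In the authors' deposited table, the p-values of the 10 ranged between 0.265 for Cebpa and 0.978 for Cebpb, and no q-value was under 0.999997. That test sets 1 library against another. In the authors' deposited table a q of at most 0.05 was reached by 9 of the 4100 measured genes (0.220%) and by 11 of all 23235 (0.0473%), with no factor among them.

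**Figure D2:**
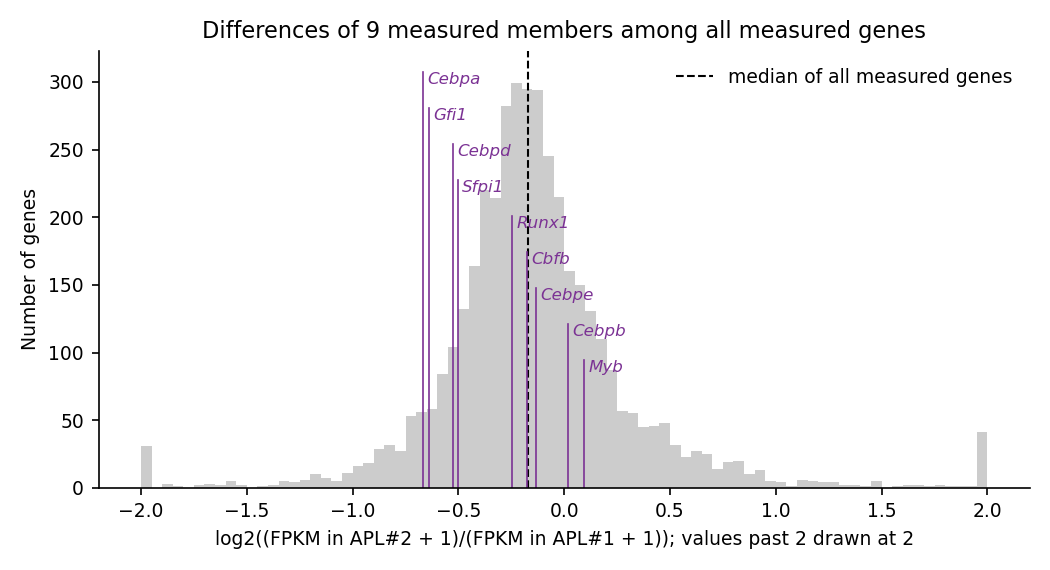
Histogram of the differences of 4100 measured genes on the log2(FPKM + 1) scale, APL#2 over APL#1, with the 9 measured factors as vertical lines of arbitrary height and the all-gene median (-0.17) dashed. Cebpa (-0.67) and Gfi1 (-0.64) stand farthest to the left and Myb (0.09) farthest to the right.

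Cebpa, which starts granulocyte commitment (mm9 chr7:35904312-35906951), stood at 2.61 FPKM in APL#2 and 4.74 FPKM in APL#1. APL#2 was thus the lower library, with a plain ratio of 0.551 (counting interval 0.484 to 0.624, from about 390 and 656 fragments), or 0.660 relative to the all-gene median. Its difference of -0.67 was lower than that of all but 7.56% of measured genes. The standard error implied by the test statistic in the authors' deposited table was 0.77 on a log2 ratio of -0.86, far wider than counting error.

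Gfi1, a zinc finger repressor that works with the demethylase LSD1 and is needed for neutrophils (mm9 chr5:108145674-108153363), stood at 3.49 FPKM in APL#2 and 5.99 FPKM in APL#1. Its plain ratio was 0.583 (0.525 to 0.649, about 573 and 908 fragments), close to that of Cebpa. The difference was -0.64, or -0.47 relative to all genes, and the error implied by the authors' deposited table was 0.70 on a log2 ratio of -0.78. Gfi1 and Cebpa thus shared a direction and a size, as did Cebpd by its plain ratio of 0.578. Of the 9 measured factors, 7 had a ratio below 1, where the all-gene median ratio was itself 0.835. On the difference scale a ratio of 1 lies at 0, between the all-gene median (-0.17) and the upper quartile of all measured genes (0.04). Relative to the all-gene median difference, 6 of the 9 factors lay below and 3 above. With 1 library a leukaemia it was not tested whether any of them vary together.

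Cebpd, a family member known for acute-phase and late neutrophil expression, stood at 1.505 FPKM in APL#2 and 2.60 FPKM in APL#1, a plain ratio of 0.578 (0.501 to 0.664). Its difference was -0.53, or -0.35 relative to all genes. The position in the table for Cebpd spans 259548 bases of chromosome 16 and is shared with 2310008H04Rik, at 2.05 FPKM in APL#2 and 1.94 FPKM in APL#1. RefSeq gives that name as a synonym of Spidr, whose exons overlap Cebpd on the opposite strand in GENCODE M21. The sources used here do not state whether strand was used, so reads of this pair cannot be told apart and the level of Cebpd is uncertain. The same holds in principle for Cebpa, Cebpb, Gfi1, Runx1 and Myb, each of which has an opposite-strand gene over an exon in that annotation.

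Cebpe, required for secondary granules, was the leading C/EBP gene, at 7.40 FPKM in APL#2 and 8.20 FPKM in APL#1. Its plain ratio of 0.902 had a counting interval of 0.793 to 1.03, and its difference was -0.13 as deposited but 0.04 relative to all genes and 0.06 after upper quartile scaling. Cebpb, which supports emergency granulopoiesis, stood at 1.87 FPKM in APL#2 and 1.83 FPKM in APL#1. The ratio of Cebpb was 1.02 (0.803 to 1.30), the nearest to 1 of the 10.

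The 4 C/EBP genes summed to 13.4 FPKM in APL#2 and 17.4 FPKM in APL#1. Cebpe made up 55.3% of this sum in APL#2 and 47.2% in APL#1, whereas Cebpa made up 19.5% in APL#2 and 27.3% in APL#1. Cebpb held 13.9% in APL#2 and 10.5% in APL#1, and Cebpd held 11.2% in APL#2 and 14.99% in APL#1. The ratio of Cebpe to Cebpa, which does not depend on the scaling between libraries, was 2.83 in APL#2 and 1.73 in APL#1, a 1.64-fold difference. It was the most unequal of the 5 ratios formed between factors. Shares of RNA say nothing of protein, and Cebpa is known to be translated into a long and a short isoform that RNA levels do not separate.

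**Figure D3:**
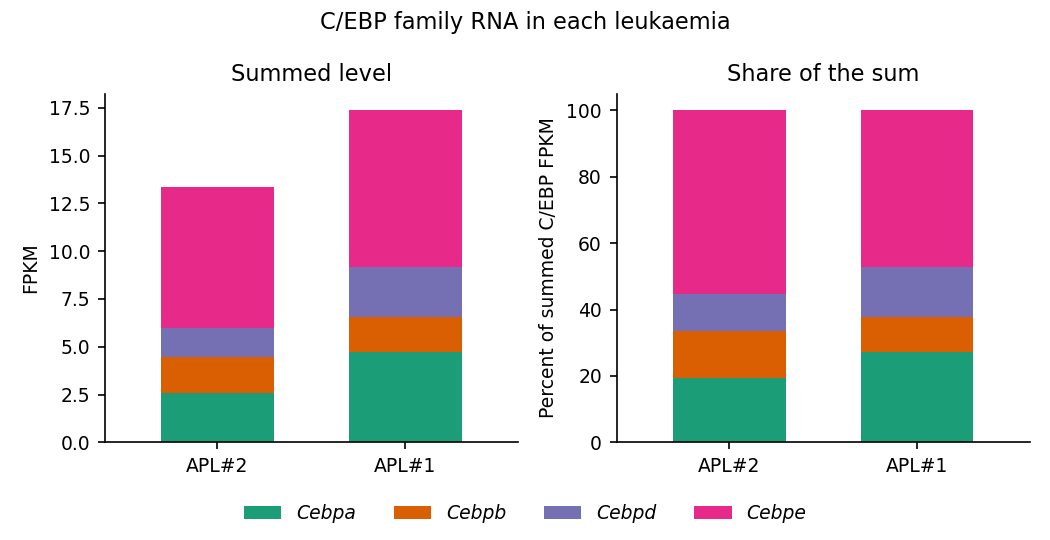
Left, FPKM of Cebpa, Cebpb, Cebpd and Cebpe stacked for APL#2 and APL#1; right, each gene's percent of that sum. Cebpe holds 55.3% in APL#2 and 47.2% in APL#1, and Cebpa 19.5% in APL#2 and 27.3% in APL#1.

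Sfpi1, the PU.1 gene, stood at 5.74 FPKM in APL#2 and 8.55 FPKM in APL#1, a plain ratio of 0.672 (0.607 to 0.745, about 650 and 894 fragments). Its difference was -0.50, or -0.33 relative to all genes. Sfpi1 lies on chromosome 2 (mm9 chr2:90936954-90955913) among genes that were nearly all lower in APL#2. Of the 10 nearest measured genes on each side, between Atp5g3 and Eif3m, 19 of 20 had a ratio below the all-gene median, and their median was 0.527 of it. These 20 genes span mm9 chr2:73746507-104857184, so they are nearest in order along the chromosome and not all close in distance. Sfpi1 itself stood at 0.805 of the all-gene median, and 18 of its 20 neighbours were lower than it. With 5 neighbours on each side their median was 0.510 of the all-gene median, and with 20 it was 0.518. The difference of Sfpi1 was lower than that of all but 13.9% of measured genes, while its ratio was higher than that of most measured genes around it. The Sfpi1 to Cebpa ratio was 2.20 in APL#2 and 1.80 in APL#1.

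None of the other 9 factors lay in such surroundings. With up to 10 genes on each side, the medians of their neighbours ranged between -0.12 for Cebpd and 0.14 for Irf8. These are on the log2 ratio scale, relative to all genes, where the median around Sfpi1 was -0.92. The windows hold set numbers of genes and differ in width, and that of Cebpe was only mm9 chr14:54855160-56290743. Around Gfi1 the neighbours' median was 0.09, and 2 of 20 were lower than Gfi1. Around Cebpa it was -0.05, and again 2 of 20 were lower than Cebpa. Around Cebpb, which is also on chromosome 2 but nearer its end (mm9 chr2:167514415-167515918), it was -0.11, with 17 of 20 lower than Cebpb. Around Myb the median was -0.02 with 10 genes on each side but 0.51 with 5 on each side, so its nearest genes were uneven. With up to 5 on each side the median also moved to -0.33 for Cebpd, -0.20 for Cebpa and -0.20 for Runx1. That of Sfpi1 was then -0.97.

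**Figure D4:**
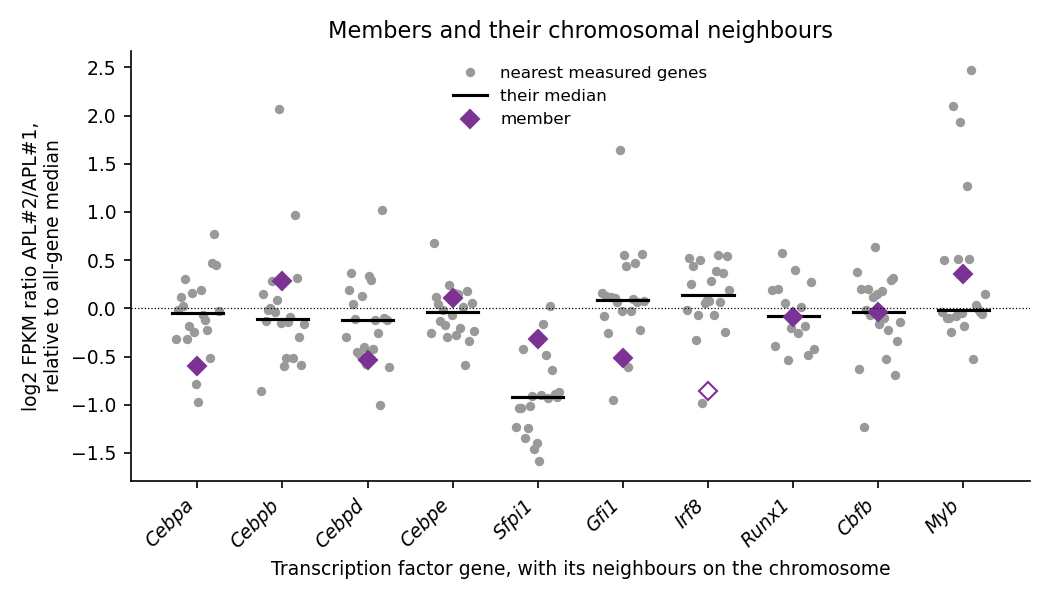
Log2 FPKM ratio of APL#2 over APL#1, relative to the all-gene median, for each factor (diamond; open for Irf8, which was not measured) and up to 10 nearest measured genes on each side (grey, with their median as a black line). Only the neighbours of Sfpi1 lie low as a group, at a median of -0.92, with Sfpi1 above them at -0.31.

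Myb, which keeps progenitors dividing and acts at early granule genes, stood at 14.0 FPKM in APL#2 and 13.1 FPKM in APL#1. It was the best counted of the factors, with about 3026 and 2610 fragments, and its plain ratio was 1.07 (1.02 to 1.13), or 1.28 relative to the all-gene median. Its difference was 0.09, or 0.27 relative to all genes, the highest of the 9 measured. The Myb to Cebpb ratio was 7.53 in APL#2 and 7.16 in APL#1.

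Runx1, the DNA-binding subunit of core binding factor, stood at 2.10 FPKM in APL#2 and 2.68 FPKM in APL#1, a plain ratio of 0.785 (0.711 to 0.868). Cbfb, whose protein stabilises RUNX proteins on DNA, stood at 1.31 FPKM in APL#2 and 1.61 FPKM in APL#1, a plain ratio of 0.815 (0.677 to 0.983). Both ratios lay close to the all-gene median of 0.835, at 0.941 and 0.977 of it. The Runx1 to Cbfb ratio was 1.605 in APL#2 and 1.67 in APL#1. Runx1 was not the most abundant of its family: Runx2 stood at 3.82 FPKM in APL#2 and 3.07 FPKM in APL#1, and Runx3, named after its values were seen, at 2.33 FPKM in APL#2 and 2.65 FPKM in APL#1. Of the summed FPKM of these 3 genes, Runx1 made up 25.5% in APL#2 and 31.9% in APL#1, a share added after the values were seen.

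Irf8 was close to silent, at 0.0123 FPKM in APL#2 and 0.0267 FPKM in APL#1. On a transcript of 2847 bases these values stood for 2 fragments in APL#2 and 4 in APL#1, and the ratio of 0.462 had an exact counting interval of 0.0418 to 3.23, so no difference was detectable at this depth. Gfi1, which is known to oppose Irf8 in progenitors, exceeded it 283-fold in APL#2 and 224-fold in APL#1, ratios that rest on those few Irf8 fragments. Irf8 is strongly expressed in B cells and dendritic cells of normal spleen. All 8 B cell markers lay under 1 FPKM in both libraries and summed to 0.660 FPKM in APL#2 and 0.234 in APL#1. Of 10 dendritic cell markers, 9 lay under 1 FPKM in both; the list summed to 2.69 FPKM in APL#2 and 3.02 in APL#1, of which the broadly expressed Bst2 made up 2.19 and 2.30. The dendritic markers Siglech, Batf3 and Cd209a were listed at 0 in both libraries.

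The promoters of 4 factors are shown, as background to which no binding data belong: Cebpa and Gfi1 as those with the most negative log2(FPKM + 1) difference, Irf8 as the one nearly silent, and Myb as the one with the highest level. They come from RefSeq in build GRCm38.p6, each 250 bases before to 50 after a start site and read 5′ to 3′ on the gene's strand, at chr7:35119043-35119342 (plus strand) for Cebpa, chr5:107725756-107726055 (minus) for Gfi1, chr8:120736108-120736407 (plus) for Irf8 and chr10:21160935-21161234 (minus) for Myb. Entries were found for 7 of the 10 factors, and Gfi1 and Irf8 have a second entry not shown. Capitals mark matches on either strand to short forms of the motifs of the factors themselves.
Cebpa: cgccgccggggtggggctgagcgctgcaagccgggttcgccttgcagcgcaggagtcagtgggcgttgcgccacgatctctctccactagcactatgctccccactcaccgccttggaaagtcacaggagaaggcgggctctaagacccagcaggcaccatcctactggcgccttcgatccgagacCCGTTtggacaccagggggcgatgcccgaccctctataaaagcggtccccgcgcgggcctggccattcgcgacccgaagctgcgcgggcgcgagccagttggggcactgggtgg
Gfi1: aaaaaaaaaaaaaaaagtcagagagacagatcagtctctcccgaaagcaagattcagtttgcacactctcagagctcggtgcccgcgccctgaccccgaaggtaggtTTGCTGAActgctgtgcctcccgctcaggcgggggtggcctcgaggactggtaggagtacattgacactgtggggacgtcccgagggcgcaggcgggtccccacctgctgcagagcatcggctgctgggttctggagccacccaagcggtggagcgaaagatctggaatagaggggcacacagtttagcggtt
Irf8: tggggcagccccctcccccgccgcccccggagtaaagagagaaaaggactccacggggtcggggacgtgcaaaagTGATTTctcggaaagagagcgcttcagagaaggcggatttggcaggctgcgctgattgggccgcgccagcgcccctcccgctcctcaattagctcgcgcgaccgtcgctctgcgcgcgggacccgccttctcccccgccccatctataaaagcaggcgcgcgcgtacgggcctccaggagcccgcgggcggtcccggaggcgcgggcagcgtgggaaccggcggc
Myb: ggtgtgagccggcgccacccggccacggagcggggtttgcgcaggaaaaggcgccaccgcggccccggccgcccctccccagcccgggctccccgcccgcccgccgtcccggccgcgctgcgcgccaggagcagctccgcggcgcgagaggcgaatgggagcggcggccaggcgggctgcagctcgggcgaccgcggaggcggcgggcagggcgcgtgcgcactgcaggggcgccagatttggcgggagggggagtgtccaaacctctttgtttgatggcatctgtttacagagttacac
The motifs were TTNCNNAA for C/EBP (found in 40.7% of 32851 RefSeq promoter entries of this length), GAGGAA for PU.1 (28.3%), TGTGGT for RUNX (16.8%), AACGG for MYB (17.4%) and AAATCA for GFI1 (14.0%). No matches overlapped in the 4 windows. The Cebpa window held 1 match, to the MYB form, at position -64 from the start site, and the Gfi1 window held 1, to the C/EBP form, at -143. The Irf8 window held 1 match, to the GFI1 form, at -175, and that of Myb held none. A match describes letters only.

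Other regulators of the same families and of other blood fates, were examined in lists of 61 genes. All 61 were found in the table and 26 were measured, of which 0 were at least 1.5-fold higher in APL#2, against 5.49% of all measured genes, and 2 at least 1.5-fold lower, against 10.1%. Their median difference was -0.17, beside -0.17 over all measured genes. The 2 were Egr1, an immediate early factor that can favour monocytes, at 5.19 FPKM in APL#2 and 49.4 FPKM in APL#1, and Lmo2, a bridging protein of stem cell factor complexes, at 3.03 FPKM in APL#2 and 6.87 FPKM in APL#1. Lmo2 is 1 of the 20 neighbours of Sfpi1 described above. Tcf3, an E protein, came next (1.77 FPKM in APL#2, 3.07 in APL#1), then Gata2, a factor of stem and mast cells (1.83 in APL#2, 2.998 in APL#1), and Elf1, of the Ets family like PU.1 (2.82 in APL#2, 4.32 in APL#1). The highest toward APL#2 was Etv6, an Ets family repressor needed by blood stem cells, at 7.98 FPKM in APL#2 and 5.45 FPKM in APL#1. It was followed by Runx2 and by Ets1 (1.42 FPKM in APL#2, 1.06 in APL#1), Zeb2 (2.43 in APL#2, 1.99 in APL#1) and the corepressor gene Cbfa2t3 (1.43 in APL#2, 1.18 in APL#1).

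By family, the measured genes stood as follows. Of 6 measured Ets genes other than Sfpi1, 3 lay above and 3 below the all-gene median, and all 3 measured genes of the RUNX and ETO group lay above it. Of 4 measured IRF genes 3 lay above it; Irf2 was the most abundant at 3.06 FPKM in APL#2 and 2.95 FPKM in APL#1, and Irf4 and Irf5, like Irf8, lay under 0.06 FPKM in both, all named after their values were seen. Gfi1b, the paralogue of Gfi1 used in red cells and platelets, was listed at 0 in both libraries. Trib1, whose protein marks C/EBPα for degradation, stood at 1.20 FPKM in APL#2 and 1.68 FPKM in APL#1, and Trib2 was listed at 0 in both; they too were named after their values were seen.

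Known target genes of the factors were examined in lists of 44 genes, of which 26 were measured. On the log2(FPKM + 1) scale 3 were at least 1.5-fold higher in APL#2, against 5.49% of all measured genes, and 6 at least 1.5-fold lower, against 10.1%, and the median was -0.01, or 0.16 relative to all genes. Primary granule and lysozyme genes, where MYB, RUNX1, C/EBPα and PU.1 are known to act, held the largest differences. Elane, neutrophil elastase, stood at 5.01 FPKM in APL#2 and 32.4 FPKM in APL#1, and Mpo, myeloperoxidase, at 157.3 FPKM in APL#2 and 661.8 FPKM in APL#1. Lyz2, lysozyme, stood at 11.2 FPKM in APL#2 and 20.1 FPKM in APL#1. Prtn3, proteinase 3, stood the same way at 2.45 FPKM in APL#2 and 3.45 FPKM in APL#1, as did Lyz1, a second lysozyme gene, at 0.695 FPKM in APL#2 and 1.04 FPKM in APL#1. The other two genes of the list stood the other way: the serine protease gene Ctsg stood at 8.99 FPKM in APL#2 and 7.89 FPKM in APL#1, and Ms4a3, a membrane protein of granulocyte and monocyte progenitors, at 15.9 FPKM in APL#2 and 7.85 FPKM in APL#1. Of the 6 measured genes of this list, 4 lay below the all-gene median and 2 above it. Prtn3, Lyz1 and Ctsg were named after their values were seen. By plain ratio Elane was 6.46-fold and Mpo 4.21-fold lower in APL#2. Whether the level of any factor has a part in these differences was not tested.

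Secondary granule genes that depend on C/EBPε went both ways. Cebpe itself differed little, and a link between its level and these genes was not tested. Camp, the cathelicidin gene, stood at 152.5 FPKM in APL#2 and 97.5 FPKM in APL#1, and Ngp, neutrophilic granule protein, at 41.7 FPKM in APL#2 and 31.7 FPKM in APL#1. Lcn2, lipocalin, stood the other way at 11.4 FPKM in APL#2 and 20.1 FPKM in APL#1, as did Ltf, lactoferrin, at 0.860 FPKM in APL#2 and 2.29 FPKM in APL#1. The other 3 genes of the list lay under 1 FPKM in both.

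Of 6 measured receptor and surface genes driven by PU.1 and C/EBPα, 5 lay above the all-gene median. Csf3r, the receptor for the granulocyte growth factor G-CSF, stood at 11.8 FPKM in APL#2 and 11.9 FPKM in APL#1; it was named after its values were seen. Csf2ra, a chain of the GM-CSF receptor, stood at 7.62 FPKM in APL#2 and 2.82 FPKM in APL#1. On the log2(FPKM + 1) scale it was the 1 of 26 measured targets at least 2-fold higher, against 2.10% of measured genes. The plain ratio of Ms4a3 also passed 2, at 2.03. The table places Csf2ra and Ms4a3 on chromosome 19. Itgb2, the shared integrin chain of myeloid cells, stood at 1.85 FPKM in APL#2 and 1.07 FPKM in APL#1.

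Phagocyte genes known to need PU.1, some with IRF8, differed little: 5 of 8 were measured, and all 5 lay above the all-gene median. None of the 5 passed 1.5-fold, against 5.49% of measured genes higher in APL#2 and 10.1% lower. Below the limit for measured genes, 2 of the 8 stood apart, both named after their values were seen. Emr1, which encodes the macrophage antigen F4/80, stood at 0.537 FPKM in APL#2 and 0.0230 FPKM in APL#1, and Cybb, of the phagocyte oxidase, at 0.224 FPKM in APL#2 and 0.0115 FPKM in APL#1. Their APL#1 values lay near the floor, below the 0.0267 FPKM of Irf8, and no fragment numbers or counting intervals were formed for them. The standard errors implied by the authors' test statistic were 1.36 for Emr1 and 1.45 for Cybb, on log2 ratios of 4.55 and 4.28. Beside Emr1 and Cybb, the list of 10 macrophage and monocyte markers, which contains Emr1, summed to 9.52 FPKM in APL#2 and 5.85 FPKM in APL#1. Vcam1 gave 7.47 FPKM of this in APL#2 and 3.94 in APL#1. Cd68 stood the other way at 1.01 FPKM in APL#2 and 1.54 FPKM in APL#1, named after its values were seen. The other 8 of the 10 lay under 1 FPKM in both. The part of macrophages and monocytes in the levels of Sfpi1 and Irf8 was not tested. Of 6 genes that Gfi1 is known to repress, 1 was measured, the cell cycle inhibitor gene Cdkn1a at 2.07 FPKM in APL#2 and 1.41 FPKM in APL#1, while Id2 stood at 0.303 FPKM in APL#2 and 1.02 FPKM in APL#1, and Hoxa9 and Meis1 were listed at 0 in both. Of 4 measured progenitor genes linked to Myb, Cd34 alone was at least 1.5-fold lower in APL#2, against 10.1% of measured genes. It stood at 4.40 FPKM in APL#2 and 7.52 FPKM in APL#1. Relative to the all-gene median, 0 of the 4 were at least 1.5-fold lower, against 5.34% of measured genes, and 3 of the 4 lay above that median. Cdkn1a, Id2 and Cd34 were named after their values were seen.

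**Figure D5:**
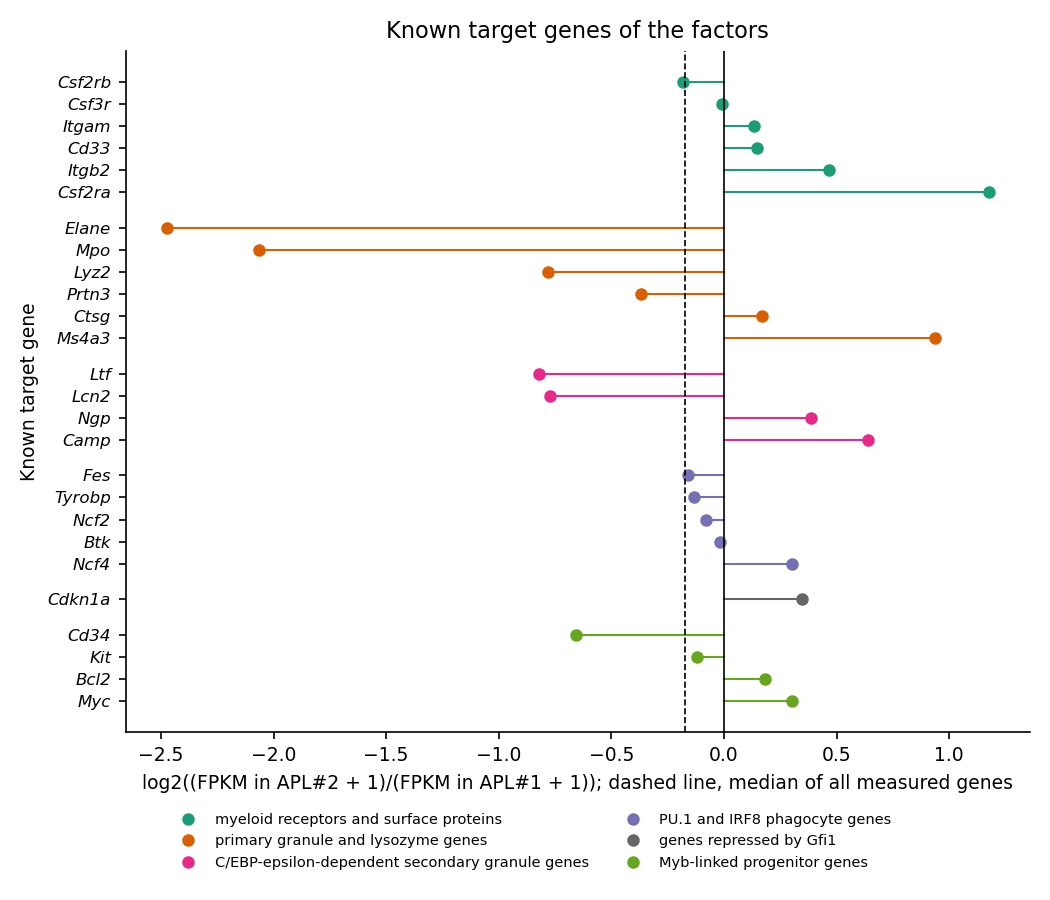
Differences on the log2(FPKM + 1) scale, APL#2 over APL#1, of 26 measured target genes in 6 groups; the solid line marks 0 and the dashed line the all-gene median of -0.17. Elane (-2.47) and Mpo (-2.07) lie far left within a group that also holds Ms4a3 (0.94), and the secondary granule genes lie on both sides.

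Markers of other cell types were mostly low. All 6 NK cell markers, all 5 erythroid markers found in the table and all 4 plasma cell markers found in it lay under 1 FPKM in both. Of 8 T cell markers, 7 lay under 1 FPKM in both, the exception being Tcf7 at 1.73 FPKM in APL#2 and 1.05 FPKM in APL#1. Of 6 megakaryocyte markers Itga2b was the exception, at 3.95 FPKM in APL#2 and 2.34 FPKM in APL#1, and Pf4, Gp9 and Ppbp were listed at 0 in both. Basophil and mast cell genes did differ: Cpa3 stood at 7.09 FPKM in APL#2 and 41.3 FPKM in APL#1, and the list of 6 summed to 16.5 FPKM in APL#2 and 50.2 FPKM in APL#1, with Fcer1a and Prss34 at 0 in both; Mcpt8, named after its values were seen, stood the other way at 8.04 FPKM in APL#2 and 1.02 FPKM in APL#1. Gata2, lower in APL#2, is known in such cells; the part of these cells in its level was not tested. Eosinophil markers summed to 2.61 FPKM in APL#2 and 4.01 FPKM in APL#1, led by Siglec5 at 1.85 and 2.42. Stroma and endothelium markers summed to 2.73 FPKM in APL#2 and 4.94 FPKM in APL#1, led by Pecam1 at 1.62 and 3.62. Pdgfrb stood at 1.11 FPKM in APL#2 and 1.30 FPKM in APL#1. The other 5 of these 7 markers lay under 1 FPKM in both, with Col1a2, Col3a1 and Kdr listed at 0 in both.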

How the data were processed

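The deposited gene table gives 1 value per gene in each of 2 libraries. The authors' 2 value columns were read as FPKM, because its columns are laid out as Cuffdiff writes them; the header names no unit. The table deposited by the authors also holds a test statistic (a score) and, per the file headers, the authors' p-value and q-value; its log2 column was not used, as it holds placeholders where a library is at 0. Build mm9 and the tools Cuffdiff, Cufflinks and TopHat2 2.0.10 are listed without roles, per the submitters' processing notes; the sources used here state neither read layout nor strand, annotation or normalization setting. Starts in the table count from 0 and were raised by 1.

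Differences used a pseudocount of 1 and a minimum mean FPKM of 1, with pseudocounts of 0.1 and 5, no minimum, a minimum of 5, upper quartile scaling and median centring as alternatives. With 1 library a group no test was run. The step of 1 fragment was read from genes with mean FPKM under 0.2, of which 305 of 3168 shared the APL#1 to APL#2 ratio 1.08 within 0.1%, and from low genes with 1 transcript in GENCODE M21, whose longest coding transcript also gave each factor's length. Intervals of ratios are exact binomial (Clopper-Pearson). The method was tested on simulated data.

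The members, lists and rules were chosen with earlier results of these data known. Named besides the 10 factors were the 5 measured regulators and the 5 measured targets with the largest difference in each direction and the most abundant gene of each marker list. Every other gene named was chosen after its values were seen, also where this is not said beside it, among them the genes listed at 0 in both libraries, Ptprc and the genes next to or overlapping a factor. No gene was sought for a pattern like that of a factor, since 2 libraries give no measure of likeness. Computation used Python 3.11.15, pandas 2.3.3, numpy 2.4.6 and SciPy 1.17.1, and figures matplotlib 3.10.9.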

Additional observations from a re-analysis of the deposited data

How the results depend on the processing

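Cebpa, Gfi1, Cebpd and Sfpi1 were lower and Myb higher in APL#2 under each of the 4 alternatives for single factors; of 40 such values 3 lay on the other side of 0, those of Cebpe with upper quartile scaling and with centring and that of Irf8 with centring. No factor was at least 2-fold higher or lower under any of the 6 alternatives. The 1.5-fold call of Cebpa and Gfi1 depends on the scale: the count of factors at least 1.5-fold lower was 3 with a pseudocount of 0.1, where Cebpd joined them, and 0 with a pseudocount of 5, with upper quartile scaling, with centring and with a minimum mean FPKM of 5, which leaves both genes out. The factors' median difference was -0.33 with a pseudocount of 0.1, -0.11 with a pseudocount of 5, -0.092 with upper quartile scaling, -0.074 with centring and -0.13 with a minimum of 5.

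For the other regulators, a pseudocount of 0.1 gave 2 at least 2-fold lower and 6 at least 1.5-fold lower, a pseudocount of 5 and a minimum of 5 gave 1 at least 1.5-fold lower, and upper quartile scaling and centring gave 1 at least 1.5-fold higher. Their median was -0.026 with upper quartile scaling, 0.0048 with centring, -0.041 with no minimum and -1.27 with a minimum of 5, where Egr1 and Etv6 alone are left. For the target genes, 2 were at least 2-fold higher with a pseudocount of 0.1, upper quartile scaling or centring and 0 with a pseudocount of 5; upper quartile scaling gave 5 at least 1.5-fold higher and 3 at least 1.5-fold lower. Their median was 0.16 with upper quartile scaling and with centring and -0.13 with a minimum of 5. The Gfi1 to Irf8 ratio was 32.0 in APL#2 and 48.0 in APL#1 with 0.1 added to each FPKM, which turns the order of the libraries round, since Irf8 was near 0. Of 20 neighbourhood medians under other window sizes, 4 moved by 0.1 or more. No paired analysis was possible because each leukaemia has 1 library. Without replicates, depth limits counting error only, and the spread between leukaemias of 1 kind is unknown.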
